A study of Mus musculus with 12 samples.

Results

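The collagen family was examined in whole-heart RNA of 6 ac-CYB5R3-KO mice and their 6 ac-WT controls. Its members were taken as every row of the count table whose Ensembl identifier belongs to a mouse protein-coding gene with a symbol of the form Col, a number, a and a number, which gave 44 of the 53700 genes listed. All mice carried the Myh6-CreERT2 transgene, which places a tamoxifen-activated Cre recombinase under the cardiomyocyte promoter of Myh6. All mice received tamoxifen at 33 mg/kg/d for 5 days, begun at 10 to 13 weeks of age, and hearts were taken 5 days after treatment. The groups differed in the Cyb5r3 gene, which encodes the cytochrome b5 reductase CYB5R3. It was wild-type (CYB5R3wt/wt) in ac-WT mice and floxed (CYB5R3fl/fl) in ac-CYB5R3-KO mice, so that only cardiomyocytes were targeted while every cell type of the heart contributed RNA.

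Collagens are secreted or membrane-bound proteins whose chains wind around each other into a rope-like helix. Fibrillar collagens form the cables that carry tension in the interstitium and scars of the heart, and they are made mainly by fibroblasts. Type IV collagen forms the sheet-like basement membrane around cardiomyocytes and vessels, type VI collagen forms beaded microfibrils next to cells, and types II, IX and XI build the fibrils of cartilage. Further members coat fibrils, form hexagonal lattices or span the cell membrane. Types II and XI form fibrils as well, but their chains are counted here in the cartilage class and not in the fibrillar class.

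Each library held between 43393183 and 53754284 counted reads, so that for all but the lowest members the spread between mice, rather than counting, limited the precision. Levels are given as CPM, read counts brought to a common library size after TMM scaling, which corrects for a few very abundant genes taking up reads. A pair of ac-WT libraries, those of mice 2 and 3, stood apart from the rest. Their TMM factors were 0.570 and 0.723, while the other 4 ac-WT libraries had 0.988 to 1.13 and the ac-CYB5R3-KO libraries 1.04 to 1.22. Mitochondrially encoded genes held 34.8% to 35.3% of their reads, against 24.8% to 30.1% in the other ac-WT hearts and 24.0% to 28.3% in ac-CYB5R3-KO hearts. Cyb5r3 itself was at 81.9 to 185 CPM in the ac-WT group and at 42.0 to 67.4 CPM in the ac-CYB5R3-KO group, which did not overlap (log2 fold change -1.22 ± 0.19 SE, adjusted p = 0.0450 by edgeR).

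Collagen transcripts were low in the pair of hearts set apart above, ac-WT mice 2 and 3. The summed level of all 44 members was 1913 CPM in ac-WT mouse 2 and 2299 CPM in mouse 3. The other 4 ac-WT hearts held 5858 to 8828 CPM and the ac-CYB5R3-KO hearts 6039 to 8341 CPM, so that these ranges overlapped once mice 2 and 3 were set aside. Of the 37 members with enough counts to test, 23 (62.2%) were lower in both of these hearts than in each of the other 4 ac-WT hearts, against 21.1% of all 17847 genes tested. Col11a2 was the 1 member (2.70%) higher in both, against 18.3% of all genes tested. A list of 8 cardiomyocyte genes summed to 39234 to 50035 CPM in mice 2 and 3 and to 21517 to 24347 CPM in the other ac-WT hearts, while 8 markers of activated fibroblasts summed to 476 to 846 CPM and 1715 to 4479 CPM. The part of cell makeup in the collagen levels was not tested, and in whole-heart RNA fewer cells of a type and less RNA per cell cannot be told apart. Log2 fold changes of the tested collagens are therefore given for all 12 hearts and for the 10 hearts without ac-WT mice 2 and 3.

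**Figure D1:**
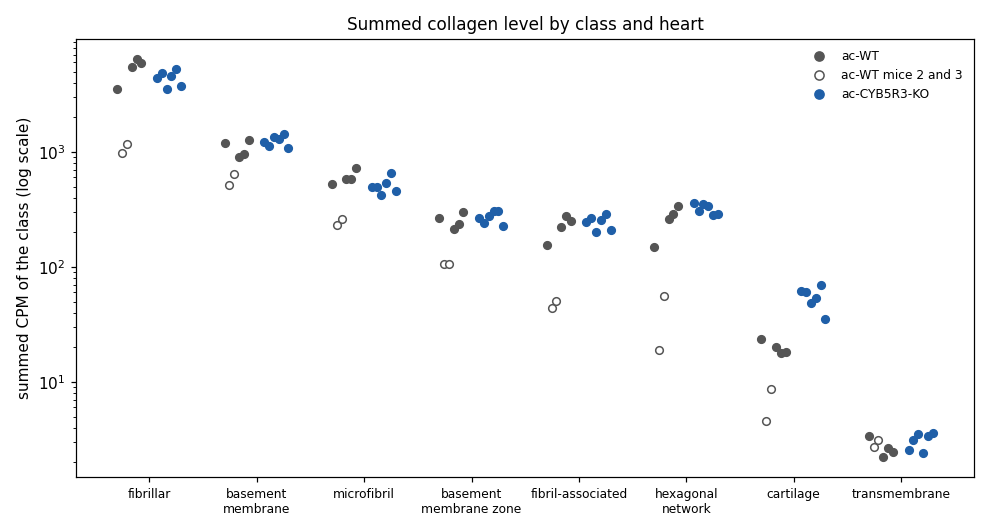
Summed CPM (log scale) of each collagen class in every heart, with 6 ac-WT hearts in grey, ac-WT mice 2 and 3 as open circles, and 6 ac-CYB5R3-KO hearts in blue. Mice 2 and 3 lie under all other hearts in 7 of the 8 classes, and the cartilage class is the 1 class in which every ac-CYB5R3-KO heart (34.9 to 69.4 CPM) lies above every ac-WT heart (4.54 to 23.4 CPM).

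Of the tested cartilage collagens 3 of 5, and 1 fibril-associated collagen, were higher in ac-CYB5R3-KO hearts, a minor microfibril chain was lower, and the abundant fibrillar chains did not pass the test. In the quasi-likelihood test of edgeR over all 12 hearts, 5 of 37 collagens had an unadjusted p under 0.01, against 4.59% of all genes tested. Col11a1, Col2a1, Col9a2 and Col22a1 were higher (background 1.33%) and Col6a6 was lower (background 3.27%). At an unadjusted p under 0.05 there were 9 collagens (background 14.6%), with Col12a1, Col4a2 and Col23a1 added among the higher (background 4.91%) and Col5a3 among the lower (background 9.73%). After Benjamini-Hochberg adjustment over all genes, 0 collagens had a p under 0.05 in edgeR (background 0.101%) and 0 in limma-voom, while DESeq2 called the same 5 as the edgeR test at 0.01 (background 2.53%).

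Without ac-WT mice 2 and 3, edgeR again gave 5 collagens with an unadjusted p under 0.01 (background 2.33%), all of them higher (background 1.01%). Col11a1, Col2a1, Col9a2 and Col22a1 stayed in this group, Col12a1 entered it and Col6a6 left it. There were 10 collagens that had an unadjusted p under 0.05 (background 7.98%), 8 of them higher (background 3.44%) and 2 lower (background 4.54%), and Col11a1 alone passed the adjusted threshold (background 0.0383%). DESeq2 on the same 10 hearts gave 8 collagens with an unadjusted p under 0.01 (background 3.44%). Of these Col3a1 (log2 fold change -0.53, unadjusted p = 0.00629) and Col6a6 (-1.19, unadjusted p = 0.00519) were lower and the rest higher. Col11a1, Col9a2 and Col22a1 passed its adjusted threshold (background 0.967%). Col11a1 was also the only tested collagen whose groups did not overlap, over 12 hearts (background 1.55%, 0.51% for higher genes) and over 10 (background 1.99%, 0.74% for higher genes). Groups that are apart over 12 hearts stay apart when hearts are left out, so the second comparison is no further test of Col11a1.

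The median log2 fold change was 0.35 over the 37 collagens and -0.01 over all genes, with 27 members above 0 and 10 below. It fell to 0.11 over the collagens, against 0.02 over all genes, without mice 2 and 3. By class the medians over 12 and then 10 hearts were 1.59 and 1.14 for cartilage collagens (5 tested), 0.38 and 0.23 for basement membrane collagens (6 tested), 0.23 and -0.19 for fibrillar collagens (8 tested), and -0.09 and -0.32 for microfibril collagens (5 tested). The fibrillar median thus changed sign with the choice of ac-WT hearts, and the basement membrane class was the 1 class of these 4 in which all tested members were above 0 in both. Scaling by total counts in place of TMM raised the median of all genes to 0.26, and the class medians in the same order to 1.70, 0.61, 0.33 and 0.11 over 12 hearts, so that the microfibril collagens moved to above 0 but not above all genes.

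**Figure D2:**
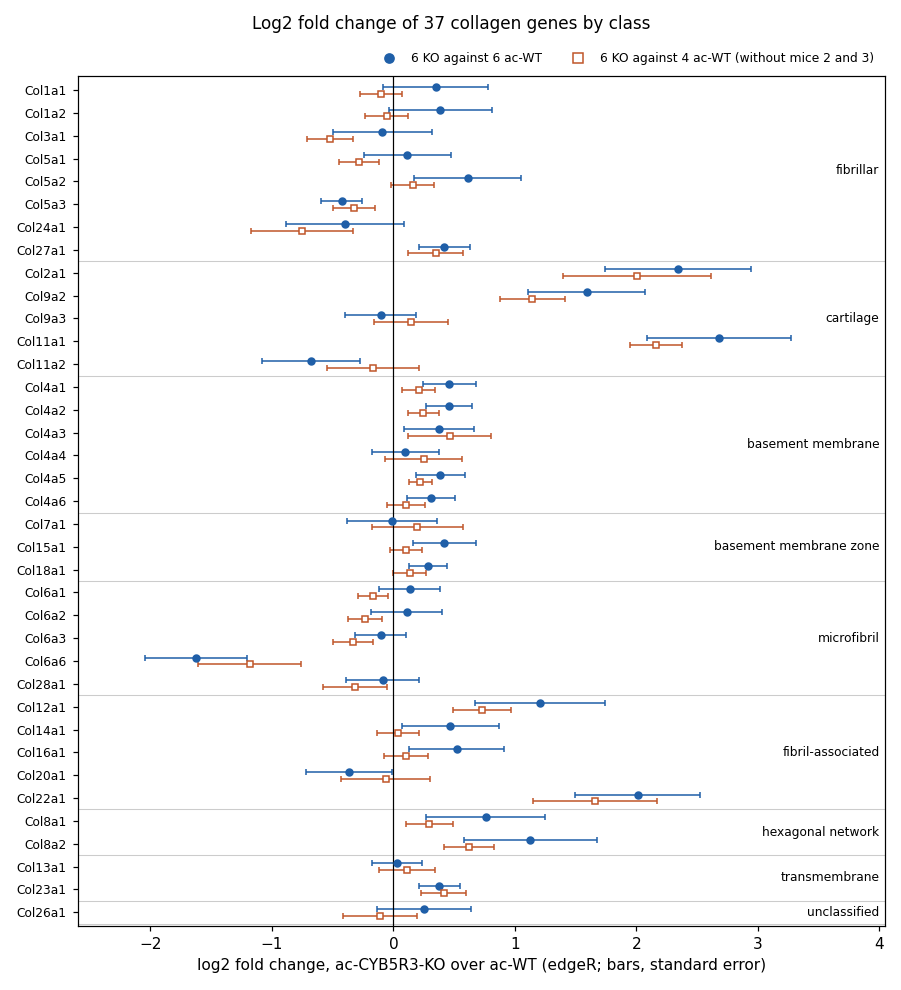
Log2 fold change (ac-CYB5R3-KO over ac-WT, horizontal axis) of the 37 tested collagens by class, with bars for the standard error of edgeR. Filled circles use all 12 hearts and open squares leave out ac-WT mice 2 and 3: Col11a1, Col2a1, Col9a2 and Col22a1 stay above 1 and Col6a6 under -1 in both, while Col1a1, Col1a2 and Col5a1 cross 0.

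Of the fibrillar class, Col3a1, Col1a2 and Col1a1 were the most abundant collagens per length, and all members of the class overlapped between the groups. Per kilobase of transcript, Col3a1 led with a median of 375 CPM/kb in ac-WT and 313 CPM/kb in ac-CYB5R3-KO hearts. Col1a2 followed at 206 and 237 CPM/kb and Col1a1 at 141 and 155 CPM/kb, and these chains overlapped between groups. None of the 8 members of this class had an unadjusted p under 0.01 in edgeR, and Col5a3 had one under 0.05. The class leaves out Col2a1, Col11a1 and Col11a2, chains of cartilage fibrils that are counted in the cartilage class. Of these, Col11a1 and Col2a1 were higher at an unadjusted p under 0.01 in edgeR, and Col11a2 did not pass.

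Col3a1, the single chain of type III collagen in elastic tissue and early scar, was at 498 to 3336 CPM in ac-WT hearts (median 2088) and 1366 to 2264 CPM in ac-CYB5R3-KO hearts (median 1744). Mice 2 and 3 were the lowest of all 12 hearts, and 3 of the other 4 ac-WT hearts (1686 to 3336 CPM) were above the highest ac-CYB5R3-KO heart. Its log2 fold change was -0.09 ± 0.41 (SE, unadjusted p = 0.824 by edgeR) over 12 hearts and -0.52 ± 0.19 (SE, unadjusted p = 0.0182, adjusted p = 0.506, edgeR, with 0.225 to 1 over all settings) over 10. Col1a2, a chain of the main tensile collagen type I, was at 217 to 1479 CPM in ac-WT hearts (median 1102) and 940.3 to 1408 CPM in ac-CYB5R3-KO hearts (median 1265). Its groups overlapped, and its log2 fold change was 0.39 ± 0.42 over 12 hearts and -0.06 ± 0.18 over 10. Its partner chain Col1a1 was at 140.3 to 1112 CPM in ac-WT hearts (median 834) and 664 to 1029 CPM in ac-CYB5R3-KO hearts (median 921), with log2 fold changes of 0.35 ± 0.43 and -0.10 ± 0.17.

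Type V collagen is buried in type I fibrils and sets their thickness, and neither of its main chains passed the test. Col5a1 was at 45.3 to 281 CPM in ac-WT hearts (median 178) and 143 to 200.2 CPM in ac-CYB5R3-KO hearts (median 177). Its partner Col5a2 was at 39.3 to 378 CPM in ac-WT hearts (median 245) and 306 to 384 CPM in ac-CYB5R3-KO hearts (median 334). For both chains mice 2 and 3 were the lowest hearts, but Col5a2 in ac-CYB5R3-KO hearts stayed within a narrow range at the top of the ac-WT values. The log2 fold change was 0.11 ± 0.36 for Col5a1 and 0.61 ± 0.44 for Col5a2 over 12 hearts, and -0.28 ± 0.16 and 0.16 ± 0.18 over 10. Col5a3, a minor chain of the same type, was at 26.5 to 54.5 CPM in ac-WT hearts (median 42.1) and 23.4 to 36.3 CPM in ac-CYB5R3-KO hearts (median 30.9). The groups overlapped, with 4 ac-WT hearts above the highest ac-CYB5R3-KO heart, and the log2 fold change was -0.42 ± 0.17 (unadjusted p = 0.0247, adjusted p = 0.270, edgeR). Without mice 2 and 3 it was -0.32 ± 0.17 (unadjusted p = 0.0856, edgeR), which ended the call at 0.05. Mice 2 and 3 did not stand low for this chain (36.8 and 54.5 CPM). The low-level members Col24a1 and Col27a1 had log2 fold changes of -0.40 ± 0.49 and 0.42 ± 0.21 over 12 hearts and -0.75 ± 0.42 and 0.35 ± 0.23 over 10, and neither passed.

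A ratio of read counts within a heart depends on no library scaling, and 6 such ratios between collagen chains were compared by two-sided exact permutation tests over the 924 placements of 12 hearts. The counts were not divided by length, so only the difference between groups is meaningful. The ratio of Col1a1 to Col3a1 had a median of 0.365 over ac-WT hearts (lowest 0.282, highest 0.419) and of 0.501 over ac-CYB5R3-KO hearts (lowest 0.448, highest 0.542). Every ac-CYB5R3-KO heart was above every ac-WT heart, and ac-WT mice 2 (0.282) and 3 (0.345) were not set apart from the rest of their group. The log2 ratio was higher by 0.50 in ac-CYB5R3-KO hearts (exact p = 0.00216, the smallest this test can give, and 0.00649 adjusted over the 6 ratios). Without mice 2 and 3 the difference was 0.41. With the groups apart over 12 hearts, the exact permutation p of this comparison (0.00476, the smallest possible over 210 placements) was fixed in advance and adds no support.

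The ratio of Col5a2 to Col5a1, added after the values were seen, was also apart. It had a median of 1.29 over ac-WT hearts (lowest 0.867, highest 1.54) and of 1.89 over ac-CYB5R3-KO hearts (lowest 1.72, highest 2.16). The log2 difference was 0.65 (exact permutation p = 0.00216, adjusted p = 0.00649). Since the pair was added after the values were seen, neither p-value covers that choice. The share of all gene pairs whose ratios are apart was not computed. Without mice 2 and 3 the difference was 0.46, with an exact permutation p (0.00476) again fixed by the groups being apart. The lowest ac-WT values were those of mice 2 (0.867) and 3 (1.05), and the other 4 ac-WT hearts held 1.24 to 1.54.

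The remaining ratios, between chains that assemble into a shared molecule, overlapped between groups. Col1a2 to Col1a1 differed by 0.01 on the log2 scale (exact permutation p = 0.853), Col4a1 to Col4a2 by 0.01 (exact permutation p = 0.844) and Col6a2 to Col6a1 by 0.03 (exact permutation p = 0.675). Col8a2 to Col8a1 was lowest at 0.0538 and highest at 0.173 over ac-WT hearts and 0.0812 and 0.179 over ac-CYB5R3-KO hearts, a log2 difference of 0.46 (exact permutation p = 0.136). The ratios of Col1a2, Col6a2 and Col8a2 to their partners were also added after the values were seen.

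**Figure D3:**
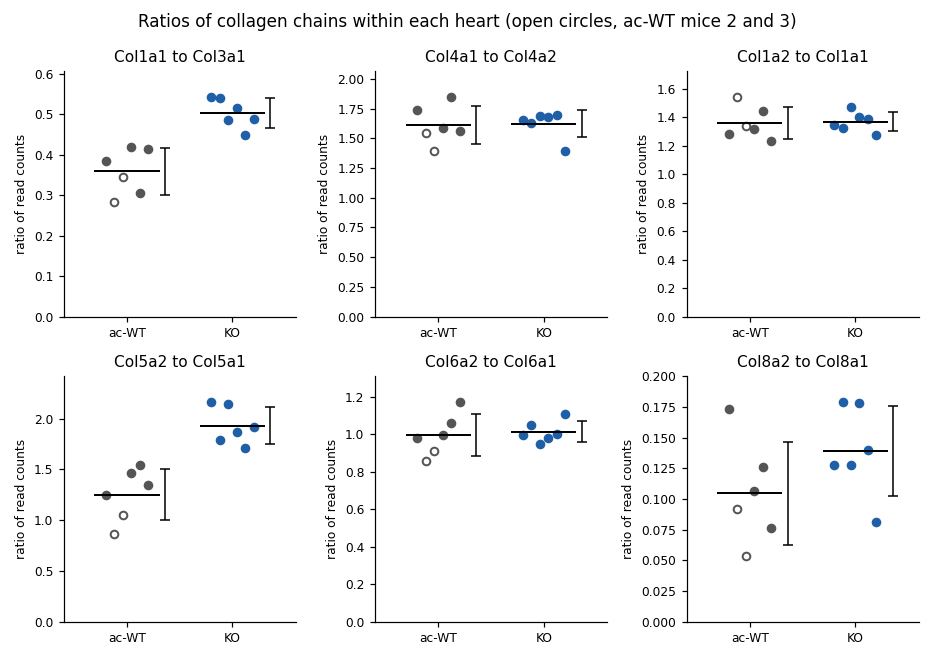
Ratio of read counts of 6 collagen chain pairs in each heart, with the mean as a line and the SD over 6 hearts as a bar beside it; ac-WT mice 2 and 3 are open circles. The ratios of Col1a1 to Col3a1 (0.282 to 0.419 against 0.448 to 0.542) and of Col5a2 to Col5a1 (0.867 to 1.54 against 1.72 to 2.16) do not overlap, and the other 4 do.

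Upstream sequences are shown for the most abundant chains of types I and III, Col1a2 and Col3a1, while Col1a1 is not among the windows used here. They are the 250 bases before the gene start in RefSeq (GRCm38.p6), read 5′ to 3′ on the strand of the gene, Col1a2 at chr6:4505368-4505617 on the plus strand and Col3a1 at chr1:45311288-45311537 on the plus strand. Capitals mark 3 core promoter motifs, searched on either strand with no mismatch allowed. The letters of the TATA box were TATAAA, and those of the CCAAT box are its name. For the GC box, which Sp1 factors bind, the letters were GGGCGG. In the windows shown the matches did not overlap each other.
Col1a2: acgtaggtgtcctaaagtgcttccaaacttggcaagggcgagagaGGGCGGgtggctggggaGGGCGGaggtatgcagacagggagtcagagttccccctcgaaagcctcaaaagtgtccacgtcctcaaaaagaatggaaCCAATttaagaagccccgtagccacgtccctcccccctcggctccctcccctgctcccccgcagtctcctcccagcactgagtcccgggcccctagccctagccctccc
Col3a1: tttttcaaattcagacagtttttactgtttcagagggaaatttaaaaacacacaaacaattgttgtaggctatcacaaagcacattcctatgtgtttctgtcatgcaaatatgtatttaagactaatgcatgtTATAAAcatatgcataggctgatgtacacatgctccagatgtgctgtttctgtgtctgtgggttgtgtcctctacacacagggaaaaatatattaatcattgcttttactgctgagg
The Col1a2 window held 2 GC boxes and a CCAAT box on the strand of the gene and had a GC content of 62.0%, while the Col3a1 window held the TATAAA letters once, 117 to 112 bases before the start, and had a GC content of 35.2%. The median GC content of all windows was 52.4%. Of all 32851 windows of this length, 12.4% held TATAAA, 33.8% held CCAAT and 32.7% held GGGCGG. Among the 38 windows of the 35 collagen genes in that set, 5, 13 and 22 did. A match is a run of letters only, and which start is used in these hearts was not measured.

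The cartilage collagens held the largest differences, at levels far under those of the chains of types I and III. Of the 5 tested members, 3 rose at an unadjusted p under 0.01 in edgeR (background 1.33% for higher genes), and the same 3 did so without mice 2 and 3 (background 1.01%). Col11a2 and Col9a3 did not pass.

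Col11a1, a chain of the type XI collagen that seeds thin fibrils in cartilage and in embryonic tissue, was at 0.278 to 7.82 CPM in ac-WT hearts (median 4.86) and 21.1 to 36.5 CPM in ac-CYB5R3-KO hearts (median 25.4). Every ac-CYB5R3-KO heart was above every ac-WT heart, and mice 2 and 3 held only 0.280 and 0.278 CPM. The difference was 6.40-fold over 12 hearts (log2 fold change 2.68 ± 0.59 SE, unadjusted p = 0.000517, adjusted p = 0.144 by edgeR and 0.0133 by DESeq2). Against the other 4 ac-WT hearts (4.34 to 7.82 CPM) it was 4.47-fold (log2 fold change 2.16 ± 0.21 SE, adjusted p = 0.00196 by edgeR, with 1.64e-20 to 0.295 over all settings). Leaving out the hearts with the lowest levels could not bring the groups to overlap, and it made the fold change smaller.

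Col2a1, the chain of the main cartilage fibril, was near the limit of detection, with 229 counts over all hearts and at most 51 in any of them. It was at 0 to 0.394 CPM in ac-WT hearts (median 0.0562) and 0.224 to 0.958 CPM in ac-CYB5R3-KO hearts (median 0.621). Mouse 2 had no count, ac-WT mouse 4 reached into the ac-CYB5R3-KO range, and the groups overlapped there alone. The log2 fold change was 2.34 ± 0.60 (unadjusted p = 0.00166, adjusted p = 0.173 by edgeR and 0.0160 by DESeq2, with 0.0160 to 0.474 over all settings) and 2.01 ± 0.61 without mice 2 and 3 (unadjusted p = 0.00654).

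Col9a2, a chain of type IX collagen that decorates type II fibrils, was at 0.978 to 12.6 CPM in ac-WT hearts (median 10.7) and 11.5 to 41.4 CPM in ac-CYB5R3-KO hearts (median 24.5). The ac-CYB5R3-KO hearts but 1 were above every ac-WT heart, and the overlap came from ac-CYB5R3-KO mouse 6. The log2 fold change was 1.59 ± 0.48 (unadjusted p = 0.00527, adjusted p = 0.194 by edgeR and 0.0380 by DESeq2, with 0.00458 to 0.586 over all settings). It was 1.14 ± 0.27 without mice 2 and 3 (unadjusted p = 0.00108, edgeR), whose levels were 0.978 and 2.64 CPM. Without ac-CYB5R3-KO mouse 5, the highest heart, the log2 fold change was 1.39 and the unadjusted p 0.0147 (edgeR), which ended the call at 0.01. With 1 surrogate variable in the edgeR fit the log2 fold change was 0.97 (unadjusted p = 0.0321), which ended it as well.

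The partner chains did not pass the test. Col11a2 had a log2 fold change of -0.68 ± 0.40 (unadjusted p = 0.112, edgeR), with ac-WT mice 2 and 3 at 2.83 and 4.97 CPM and the other ac-WT hearts at 0.815 to 2.54 CPM. Col9a3 had one of -0.11 ± 0.29 (unadjusted p = 0.722). Over 10 hearts the values were -0.17 ± 0.38 for Col11a2 and 0.15 ± 0.30 for Col9a3. Per kilobase, Col9a2 stood at 3.66 CPM/kb in ac-WT and 8.39 CPM/kb in ac-CYB5R3-KO hearts and Col9a3 at 0.133 and 0.123 CPM/kb, so the chains of type IX collagen were not at equal levels.

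Markers of cartilage were read beside these chains. Of 13 listed genes 6 were tested, and their summed level was 21.0 to 23.7 CPM in ac-WT mice 2 and 3, 39.4 to 73.6 CPM in the other ac-WT hearts and 74.5 to 121 CPM in ac-CYB5R3-KO hearts. Comp, a matrix protein of cartilage and tendon that binds collagens, was at 3.16 to 34.5 CPM in ac-WT hearts (median 18.3) and 37.0 to 95.8 CPM in ac-CYB5R3-KO hearts (median 77.7). Its groups did not overlap, and its log2 fold change was 2.17 ± 0.50 (unadjusted p = 0.000665, adjusted p = 0.144, edgeR), and 1.71 ± 0.27 without mice 2 and 3. Acan, the main cartilage proteoglycan, reached at most 38 counts in a heart and had a log2 fold change of 0.81 ± 0.33 (unadjusted p = 0.0305). In edgeR Sox9, the regulator of cartilage cells, had one of 0.51 ± 0.35 (unadjusted p = 0.164), Cnmd -0.86 ± 0.46 (unadjusted p = 0.0855), Prg4 -0.77 ± 0.58 (unadjusted p = 0.206) and Cytl1 -0.12 ± 0.31 (unadjusted p = 0.695). The other markers, Matn1, Matn3, Hapln1, Chad, Ucma, Snorc and Epyc, were below the count filter, with at most 33 counts in a heart. The part of cartilage tissue in the levels of Col11a1, Col2a1 and Col9a2 was not tested.

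**Figure D4:**
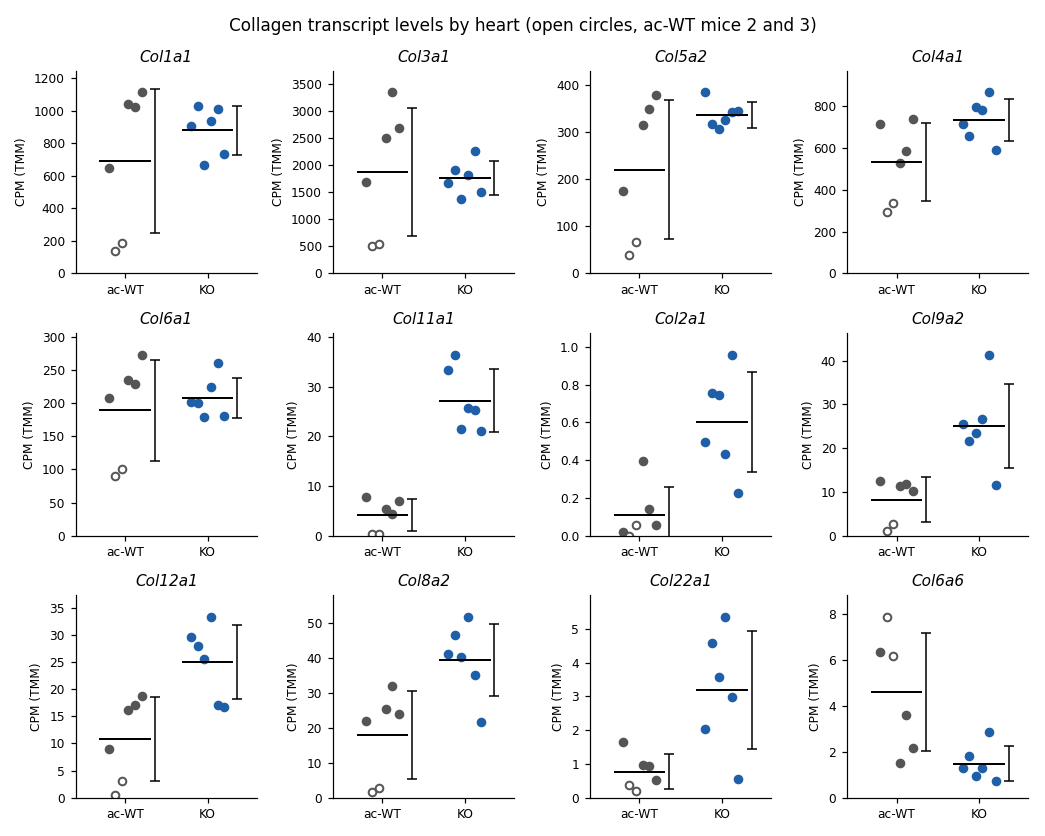
CPM of 12 collagen genes in each of 6 ac-WT hearts (grey, mice 2 and 3 as open circles) and 6 ac-CYB5R3-KO hearts (blue), with the mean as a line and the SD as a bar; each panel has its own axis from 0. Mice 2 and 3 are the lowest ac-WT hearts in all panels but Col2a1 and Col6a6, and Col11a1 is the 1 gene shown whose groups do not overlap (0.278 to 7.82 against 21.1 to 36.5 CPM).

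Upstream windows were at hand for the pair of higher cartilage chains Col11a1 (chr3:114030290-114030539, plus strand) and Col9a2 (chr4:121039316-121039565, plus strand), printed and marked as above, and not for Col2a1.
Col11a1: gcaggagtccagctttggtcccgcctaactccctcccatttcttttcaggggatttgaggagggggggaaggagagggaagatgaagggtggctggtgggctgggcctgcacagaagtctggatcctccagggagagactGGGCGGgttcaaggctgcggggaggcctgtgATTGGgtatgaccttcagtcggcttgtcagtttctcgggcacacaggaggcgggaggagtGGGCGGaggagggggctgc
Col9a2: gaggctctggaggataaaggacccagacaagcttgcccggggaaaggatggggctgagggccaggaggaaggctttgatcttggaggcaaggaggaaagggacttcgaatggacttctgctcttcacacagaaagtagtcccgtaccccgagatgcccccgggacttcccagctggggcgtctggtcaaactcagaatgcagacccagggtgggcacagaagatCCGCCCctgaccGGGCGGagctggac
Both windows held 2 GC boxes, with 1 of those of Col9a2 on the opposite strand, and Col11a1 also held a CCAAT box on the opposite strand. Their GC contents were 62.4% and 60.4%, near that of Col1a2, and neither held TATAAA.

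The basement membrane collagens all had log2 fold changes above 0, and 1 of the 6 passed an unadjusted p under 0.05 (background 14.6%, 4.91% for higher genes). Col4a1 and Col4a2 form the ubiquitous type IV network, and per kilobase Col4a1 (84.1 CPM/kb in ac-WT and 113 CPM/kb in ac-CYB5R3-KO hearts) came next after types I and III. Col4a1 was at 296 to 739.8 CPM in ac-WT hearts (median 556) and 592 to 865 CPM in ac-CYB5R3-KO hearts (median 747). Col4a2, which is transcribed from the other strand of a start region it shares with Col4a1, was at 192 to 473 CPM in ac-WT hearts (median 324) and 404 to 510.1 CPM in ac-CYB5R3-KO hearts (median 448). Mice 2 and 3 were the lowest for both chains, all 6 ac-CYB5R3-KO hearts were above the ac-WT median of each, and the groups overlapped. Log2 fold changes were 0.46 ± 0.22 for Col4a1 (unadjusted p = 0.0550) and 0.46 ± 0.19 for Col4a2 (unadjusted p = 0.0303, adjusted p = 0.286, edgeR). Without mice 2 and 3 they were 0.21 ± 0.14 and 0.25 ± 0.13 (unadjusted p = 0.158 and 0.0740), so that Col4a2 no longer passed 0.05. The strand setting of the counting is not given in the sources used here, so reads of genes that overlap on opposite strands may not be separated.

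The chains of the tissue-restricted type IV networks, best known from the kidney, were lower in level. Col4a5 was the highest of them, at 15.9 to 46.9 CPM in ac-WT hearts (median 40.3) and 44.2 to 54.1 CPM in ac-CYB5R3-KO hearts (median 50.1). Its log2 fold change was 0.39 ± 0.20 (unadjusted p = 0.0743) over 12 hearts and 0.22 ± 0.10 (unadjusted p = 0.0409) over 10, and the low ac-WT value was that of mouse 2. Col4a3, Col4a4 and Col4a6 had log2 fold changes of 0.37 ± 0.29, 0.10 ± 0.27 and 0.31 ± 0.20 over 12 hearts and 0.46 ± 0.34, 0.25 ± 0.32 and 0.11 ± 0.15 over 10, none of which passed. Of the neighbouring collagens of the basement membrane zone, Col15a1, a chondroitin sulfate carrier at the surface of muscle and vessels, was at 89.3 to 276 CPM in ac-WT hearts (median 203) and 202 to 282 CPM in ac-CYB5R3-KO hearts (median 241). Col18a1, the precursor of endostatin, was at 13.6 to 26.5 CPM in ac-WT hearts (median 19.4) and 18.8 to 29.9 CPM in ac-CYB5R3-KO hearts (median 23.8). Both overlapped between groups, with log2 fold changes of 0.42 ± 0.26 and 0.28 ± 0.16 over 12 hearts and 0.10 ± 0.13 and 0.13 ± 0.13 over 10. Col7a1, the anchoring fibril of skin, was low and had one of -0.01 ± 0.37, and 0.20 ± 0.38 over 10 hearts.

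The microfibril collagens split into abundant chains that did not pass and a scarce chain that was lower. Col6a1 was at 90.4 to 273 CPM in ac-WT hearts (median 219) and 179.6 to 262 CPM in ac-CYB5R3-KO hearts (median 201). Col6a2 was at 77.5 to 319.7 CPM in ac-WT hearts (median 219) and 169.7 to 261 CPM in ac-CYB5R3-KO hearts (median 205). These chains of the main type VI trimer overlapped between groups, had mice 2 and 3 as the lowest hearts, and had log2 fold changes of 0.13 ± 0.25 and 0.11 ± 0.29 over 12 hearts that turned to -0.17 ± 0.12 and -0.23 ± 0.14 over 10. Their long partner Col6a3 had log2 fold changes of -0.11 ± 0.21 and -0.33 ± 0.16, and the related Col28a1 -0.09 ± 0.30 and -0.32 ± 0.26.

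Col6a6, a chain that can take the place of Col6a3 in the trimer, was at 1.51 to 7.86 CPM in ac-WT hearts (median 4.88) and 0.712 to 2.84 CPM in ac-CYB5R3-KO hearts (median 1.29). Here ac-WT mice 1, 2 and 3 were the highest hearts, and ac-WT mice 4 and 6 lay within the ac-CYB5R3-KO range. The log2 fold change was -1.63 ± 0.42 (unadjusted p = 0.00171, adjusted p = 0.173 by edgeR and 0.0116 by DESeq2, with 0.0116 to 0.583 over all settings). Without mice 2 and 3 it was -1.18 ± 0.43 (unadjusted p = 0.0167, adjusted p = 0.487, edgeR), which ended the call at 0.01. Per kilobase Col6a6 was at 0.688 CPM/kb in ac-WT and 0.182 CPM/kb in ac-CYB5R3-KO hearts, against 12.4 and 9.47 CPM/kb for Col6a3. Its upstream window (chr9:105828086-105828335, minus strand), the 1 shown for a lower collagen and marked as above, held 2 GC boxes, 1 of them on the opposite strand, and had a GC content of 62.4%.
Col6a6: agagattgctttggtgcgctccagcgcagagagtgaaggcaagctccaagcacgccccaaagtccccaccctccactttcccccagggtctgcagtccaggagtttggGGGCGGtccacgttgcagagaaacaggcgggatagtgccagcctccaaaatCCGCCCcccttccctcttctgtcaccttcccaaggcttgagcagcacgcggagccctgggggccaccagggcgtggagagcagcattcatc

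Among the fibril-associated collagens, which sit on the surface of fibrils, the low-level Col22a1 and Col12a1 were higher and the abundant Col14a1 and Col16a1 did not pass. Col22a1, found at muscle and tendon junctions, was at 0.194 to 1.64 CPM in ac-WT hearts (median 0.727) and 0.570 to 5.35 CPM in ac-CYB5R3-KO hearts (median 3.29). All ac-CYB5R3-KO hearts but mouse 6 were above every ac-WT heart, and mouse 6 was within the ac-WT range. The log2 fold change was 2.01 ± 0.51 (unadjusted p = 0.00162, adjusted p = 0.173 by edgeR and 0.00877 by DESeq2, with 0.00877 to 0.538 over all settings) and 1.66 ± 0.51 without mice 2 and 3 (unadjusted p = 0.00719). With 1 surrogate variable in the edgeR fit it was 1.67 (unadjusted p = 0.0162), which ended the call at 0.01. Col12a1, a large collagen of tendon and of tissue under load, was at 0.559 to 18.6 CPM in ac-WT hearts (median 12.6) and 16.6 to 33.3 CPM in ac-CYB5R3-KO hearts (median 26.8). Mice 2 and 3 held 0.559 and 3.16 CPM, the other ac-WT hearts 9.05 to 18.6 CPM, and 4 ac-CYB5R3-KO hearts were above all of these. The log2 fold change fell from 1.21 ± 0.54 over 12 hearts to 0.73 ± 0.24 over 10, while the unadjusted p went from 0.0419 to 0.00967 (edgeR, adjusted p = 0.321 and 0.427, with 0.156 to 0.756 over all settings).

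Col14a1, which limits fibril growth, was at 26.1 to 178 CPM in ac-WT hearts (median 115) and 111 to 179 CPM in ac-CYB5R3-KO hearts (median 142). Col16a1 was at 11.2 to 81.3 CPM in ac-WT hearts (median 58.5) and 50.9 to 90.4 CPM in ac-CYB5R3-KO hearts (median 70.9). In both, mice 2 and 3 were the lowest hearts and the remaining ac-WT hearts covered much of the ac-CYB5R3-KO range. Their log2 fold changes were 0.47 ± 0.40 and 0.52 ± 0.39 over 12 hearts and 0.04 ± 0.17 and 0.11 ± 0.18 over 10. Col20a1 had -0.36 ± 0.35 over 12 hearts and -0.06 ± 0.37 over 10, and did not pass.

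The chains of type VIII collagen, which forms hexagonal lattices under vessel endothelium and in remodelling tissue, had log2 fold changes above 0 over 12 and over 10 hearts. Col8a1 was at 17.5 to 314 CPM in ac-WT hearts (median 182) and 249.6 to 321 CPM in ac-CYB5R3-KO hearts (median 278). Col8a2 was at 1.61 to 32.0 CPM in ac-WT hearts (median 23.0) and 21.6 to 51.7 CPM in ac-CYB5R3-KO hearts (median 40.6). In each, mice 2 and 3 were far under the other hearts. Col8a2 overlapped only because ac-CYB5R3-KO mouse 6 was under every ac-WT heart from mice 1, 4, 5 and 6, and the other 5 ac-CYB5R3-KO hearts were above all ac-WT hearts. Log2 fold changes over 12 and 10 hearts were 0.76 ± 0.49 and 0.30 ± 0.20 for Col8a1 (unadjusted p = 0.144 and 0.157) and 1.13 ± 0.55 and 0.62 ± 0.20 for Col8a2 (unadjusted p = 0.0596 and 0.0105, edgeR).

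The transmembrane collagens were scarce and little moved by the choice of ac-WT hearts. Col23a1 was at 1.23 to 1.88 CPM in ac-WT hearts (median 1.27) and 1.51 to 2.18 CPM in ac-CYB5R3-KO hearts (median 1.88). The groups overlapped, mice 2 and 3 (1.26 and 1.69 CPM) lay within the other ac-WT values, and the log2 fold change was 0.38 ± 0.17 over 12 hearts and 0.41 ± 0.18 over 10 (unadjusted p = 0.0416 and 0.0438, adjusted p = 0.321 and 0.608, edgeR, with 0.175 to 0.645 over all settings). Col13a1, a collagen of the neuromuscular junction, was at 0.851 to 1.17 CPM in ac-WT hearts (median 1.08) and 0.658 to 1.34 CPM in ac-CYB5R3-KO hearts (median 1.14), with a log2 fold change of 0.03 ± 0.20, and 0.11 ± 0.23 over 10 hearts. Col26a1, which fits none of these classes and is listed under an older symbol in the annotation used, was at 1.47 to 6.45 CPM in ac-WT hearts (median 5.25) and 2.16 to 9.68 CPM in ac-CYB5R3-KO hearts (median 5.03), with a log2 fold change of 0.25 ± 0.39, and -0.11 ± 0.31 over 10 hearts. Groups overlapped for both.

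The remaining 7 members fell below the count filter and were not tested. They were Col9a1 and Col10a1 of cartilage, Col19a1 of the fibril-associated class, Col6a4 and Col6a5 of the microfibril class, and the transmembrane Col17a1 and Col25a1. Col9a1 had 2 counts in all 12 hearts together and Col19a1 had 3, and the largest count in any heart was 16, for Col6a5. All 7 overlapped between groups, and a difference in them was not detectable at this depth.

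Genes that act on collagens were read as a background to the chains, over 66 genes in 5 lists of which 63 were tested. At an unadjusted p under 0.01, 0 of them passed in edgeR, while 2 did in DESeq2 (background 6.94%; Adamts3, log2 fold change -0.86, adjusted p = 0.0984 and Timp4, log2 fold change -1.21, adjusted p = 0.125) and 1, Adamts3, in limma-voom. At an unadjusted p under 0.05 there were 8 in edgeR, 4 of them higher and 4 lower, against a background of 14.6% (4.91% for higher and 9.73% for lower genes), a share of the list near that of all genes. The median log2 fold change was 0.22 over 12 hearts and 0.04 over 10.

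Of 19 genes of chain synthesis and folding, P4ha1, a subunit of the prolyl hydroxylase that stabilises the helix, was higher (0.37 ± 0.14, unadjusted p = 0.0230), and the list had a median of 0.24 over 12 hearts and 0.07 over 10. Of 12 genes that trim propeptides and cross-link fibrils, Adamts3, a procollagen protease, was lower (-0.86 ± 0.29, unadjusted p = 0.0116), with list medians of 0.25 and -0.02. Of 15 genes of collagen breakdown and its inhibitors, the membrane protease gene Mmp15 (-0.60 ± 0.24, unadjusted p = 0.0269) and the inhibitor gene Timp4 (-1.20 ± 0.47, unadjusted p = 0.0226) were lower, with list medians of -0.02 and -0.11. Of 9 receptor genes, the collagen-binding integrin chain Itga11 (0.74 ± 0.31, unadjusted p = 0.0308) and the receptor kinase Ddr1 (0.38 ± 0.16, unadjusted p = 0.0353) were higher, with list medians of 0.23 and 0.15. Of 8 small leucine-rich proteoglycans, which bind fibrils, Fmod was higher (1.57 ± 0.63, unadjusted p = 0.0272) and Podn lower (-0.47 ± 0.20, unadjusted p = 0.0345), with list medians of 0.34 and -0.02. These values are log2 fold changes from edgeR with adjusted p-values above 0.05, and the 8 genes were picked out after their values were seen. Without mice 2 and 3 the unadjusted p of P4ha1 and Adamts3 stayed under 0.05 (0.0360 and 0.0445), and that of the other 6 did not.

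Markers of the cell types a whole heart holds gave the setting of these levels, and their log2 fold changes are given over 12 and then 10 hearts. Of 8 fibroblast genes, led by Dcn, 2 were above 0 over 12 hearts and 1 over 10, with a list median of -0.13 and -0.28. Gsn was lower at an unadjusted p under 0.01 (-0.83 ± 0.20 and -0.51 ± 0.14). The summed level was 1333 to 1588 CPM in ac-WT mice 2 and 3, 1602 to 2160 CPM in the other ac-WT hearts and 1171 to 1742 CPM in ac-CYB5R3-KO hearts. Of 8 genes of activated fibroblasts, led by Postn, 5 were above 0 over 12 hearts and 3 over 10, with a list median of 0.44 and -0.05. Acta2, which smooth muscle also makes, was lower (-0.89 ± 0.20 and -0.78 ± 0.22), and Tnc had -0.83 ± 0.54 and -1.28 ± 0.35, under 0.01 over 10 hearts alone. The sum in ac-CYB5R3-KO hearts was 3032 to 3897 CPM.

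Of 8 cardiomyocyte genes, led by Tnnt2, 2 were above 0 over 12 hearts and 4 over 10, with a list median of -0.46 and -0.09. At an unadjusted p under 0.01 Tnni3 (-1.01 ± 0.28 and -0.46 ± 0.15), Myl2 (-1.22 ± 0.35 and -0.50 ± 0.16) and Myl3 (-0.87 ± 0.28 and -0.35 ± 0.17) were lower over 12 hearts (background 3.27% for lower genes). Over 10 hearts Myl3 no longer passed (background 2.33% for both directions). The sum over the 8 genes in ac-CYB5R3-KO hearts was 15726 to 26716 CPM. Of 8 mural genes, led by Rgs5, 3 were above 0 over 12 and over 10 hearts, with a list median of -0.23 and -0.15. Myh11 (-0.93 ± 0.26 and -0.36 ± 0.12) and Acta2 were lower at 0.01 over 12 hearts, and Acta2 alone over 10, against the same backgrounds. At 0.05 over 12 hearts Abcc9 (-0.64 ± 0.26) was also lower (background 9.73%) and Cnn1 (1.04 ± 0.42) higher (background 4.91%), and neither passed over 10. Of 8 endothelial genes, led by Cdh5, and 6 epicardial genes, led by Wt1, 0 passed an unadjusted p under 0.05 in edgeR over 12 hearts (background 14.6%) or 10 (background 7.98%).

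Of the 5 tested red blood cell genes, led by Hba-a1, 4 were higher at an unadjusted p under 0.05 over 12 hearts (background 4.91%) and 5 over 10 (background 3.44%). Over 10 hearts 4 passed 0.01 (background 1.01%), and the list median went from 1.61 to 2.38. Their summed level spread widely within both groups. In each of the adipocyte and airway lists 1 gene, Fabp4 and Scgb3a1, was tested, and neither passed. Fabp4 is also made by endothelium, and the defining adipocyte genes Adipoq and Plin1 were at a median of 0 CPM or near it. The share of these cell types in the differences of the collagens was not tested.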

How the data were processed

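Whole-heart RNA of 12 mice was read as 75 bp unpaired reads after library preparation with a stranded total RNA kit. The authors trimmed the reads, and the submitters' processing notes name STAR, featureCounts and the build GRCm39, while the methods of the study name mm9. The deposited counts are whole numbers of reads per Ensembl gene and heart, not normalized, and 0 columns were left unused. The annotation and strand setting of the counting are not given in the sources used here, so the only coordinates printed are those of the RefSeq promoter windows. Symbols and lengths (longest protein-coding transcript) came from GENCODE M1 for NCBIM37, with 1 symbol updated through RefSeq, and promoter windows from RefSeq (GRCm38.p6).

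Genes were filtered by filterByExpr (minimum count 10), scaled by TMM and tested on all 17847 remaining genes by edgeR's quasi-likelihood test (two-sided, version 4.0.16, R 4.3.3), 6 ac-CYB5R3-KO against 6 ac-WT hearts with no covariate, with Benjamini-Hochberg adjustment. The study's own test, Cuffdiff, needs reads and was not run. The biological coefficient of variation was 26.5%. Thresholds were an unadjusted p under 0.01 or 0.05 and an adjusted p under 0.05. All p-values measure the spread between these mice. Chain ratios were compared by exact permutation tests. As alternatives the counts were fitted by DESeq2 1.42.0 and by limma-voom from limma 3.58.1, and edgeR was run with total counts or RLE in place of TMM, no filter, 10 counts in every library, 1 surrogate variable (sva version 3.50.0), the replicate number as a block, leaving out each mouse, and dropping ac-WT mice 2 and 3. The last was also run with DESeq2 and with total counts, both added after the data were seen, as were 4 of the 6 ratios. The edgeR, limma-voom and DESeq2 fits were tested on simulated counts, in which DESeq2 made more false calls than edgeR and also recovered more of the smaller changes put in. The simulation held no hearts that deviate over many genes together, as ac-WT mice 2 and 3 do. It therefore does not show how the fits behave with such hearts.

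The members, classes, pathway lists and marker lists were chosen with earlier results of these data known. Of 146 genes in the lists, 3 were not matched. Values by heart are given for collagens with an unadjusted p under 0.05 and for the 2 members of each class with the highest count per kilobase, and also, picked after their values were seen, for Col1a1, Col5a1, Col5a2 and Col4a5. Pathway and marker genes were to be named at an unadjusted p under 0.01, or as the most abundant marker of a list, and others were picked after their values were seen.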

Additional observations from a re-analysis of the deposited data

Results flagged for a closer look

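A heart that stood far from the other 5 of its group was looked for in 86 sets of values, the collagen levels and chain ratios in each group, by Dixon's test at 95%. There were 5, and chance gives about 1 in 20. Col4a5 was at 15.9 CPM in ac-WT mouse 2, and the rest of that group held 36.7 to 46.9 CPM. Col2a1 was at 0.394 CPM in ac-WT mouse 4, where the rest held 0 to 0.143 CPM, and this heart was the 1 that overlapped the ac-CYB5R3-KO range. Among ac-CYB5R3-KO hearts, Col11a2 was at 2.84 CPM in mouse 3, against 0.808 to 1.55 CPM, and Col6a3 was at 133 CPM in mouse 5, against 72.1 to 87.9 CPM. The ratio of Col4a1 to Col4a2 was 1.40 in ac-CYB5R3-KO mouse 6, against 1.63 to 1.70 in the other 5. None of these genes or ratios but Col2a1 had a p under 0.05 between groups over 12 hearts.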

How the results depend on the processing

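Of the direction and call of each of the 37 collagens, 339 of 401 values under the alternatives other than leaving out a mouse stayed on the same side. The count of collagens with an unadjusted p under 0.01 was 5 and became 2 with 10 counts in every library, a filter that removes Col11a1, Col2a1 and Col22a1, and 8 when ac-WT mice 2 and 3 were dropped with DESeq2. It was between 4 and 6 with each mouse left out. The count with an adjusted p under 0.05 was 0 and became 5 with DESeq2, 1 when mice 2 and 3 were dropped, 3 when they were dropped with DESeq2 and 1 when they were dropped with total counts, and was 0 to 1 with each mouse left out (1 without ac-WT mouse 4). The count of pathway genes with an unadjusted p under 0.01 was 0 and became 2 with DESeq2, 1 with limma-voom and 1 with the replicate block, and was 0 to 3 with each mouse left out. The cartilage median fell to 0.46 with 10 counts in every library, which leaves Col9a2 and Col11a2.

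The directions of the members below turned. When ac-WT mice 2 and 3 were dropped the log2 fold changes became 0.20 for Col7a1, 0.15 for Col9a3, -0.10 for Col1a1, -0.056 for Col1a2, -0.28 for Col5a1, -0.17 for Col6a1, -0.23 for Col6a2 and -0.11 for Col26a1, and the log2 differences in ratio -0.052 for Col4a1 to Col4a2 and -0.050 for Col6a2 to Col6a1. The same members gave 0.19, 0.14, -0.11, -0.064, -0.29, -0.18, -0.24 and -0.12 when dropping was joined with DESeq2. With total counts they gave 0.27, 0.20, -0.078, -0.031, -0.26, -0.13, -0.20 and -0.067, and Col20a1 gave 0.030. With 1 surrogate variable the values were 0.22 for Col7a1, 0.13 for Col11a2, 0.25 for Col9a3, -0.14 for Col14a1, -0.060 for Col16a1, 0.16 for Col20a1, -0.31 for Col1a1, -0.25 for Col1a2, -0.45 for Col5a1, -0.037 for Col5a2, -0.28 for Col6a1, -0.37 for Col6a2 and -0.20 for Col26a1. That edgeR fit ended the calls at 0.01 of Col9a2 (0.97, unadjusted p = 0.0321), Col22a1 (1.67, unadjusted p = 0.0162) and Col6a6 (-0.93, unadjusted p = 0.0285), kept those of Col11a1 and Col2a1, and added Col3a1 (-0.70, unadjusted p = 0.00140) and Col5a1 (unadjusted p = 0.00192), both lower. With total counts over 12 hearts they were 0.30 for Col7a1, 0.21 for Col9a3, 0.00022 for Col3a1, 0.11 for Col28a1 and 0.071 for Col6a3. Limma-voom gave 0.091 for Col7a1, 0.022 for Col9a3 and 0.29 for Col3a1, and no filter gave 0.011 for Col7a1. The cause of these turns was not tested.

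Leaving out single mice moved the log2 fold change from -0.067 to 0.32 for Col4a4, -0.18 to 0.27 for Col7a1, -0.29 to 0.096 for Col9a3, -0.28 to 0.15 for Col3a1, -0.070 to 0.34 for Col5a1, -0.26 to 0.084 for Col28a1, -0.043 to 0.31 for Col6a2 and -0.052 to 0.13 for Col13a1. The log2 difference in ratio ran from -0.027 to 0.057 for Col4a1 to Col4a2, -0.016 to 0.048 for Col1a2 to Col1a1, -0.0095 to 0.080 for Col6a2 to Col6a1 and 0.29 to 0.63 for Col8a2 to Col8a1. The largest of the last, without ac-WT mouse 1, had an exact permutation p of 0.0433. Without ac-WT mouse 4 Col5a3 (-0.52), and without mouse 6 Col4a2 (0.59), passed an unadjusted p under 0.01.

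The same replicate number marks different animals in the 2 groups. Deviations of such mice from the means of their groups correlated by -0.081 to 0.35, with a mean of 0.144 against -0.028 over the 30 other pairs. The labels give no pairing, so the numbers were used as a block in an alternative fit only. With the replicate block 5 collagens had an unadjusted p under 0.01 and 0 an adjusted p under 0.05, and the log2 fold changes of Col7a1, Col3a1 and Col13a1 became 0.081, 0.21 and -0.0089. Of 12 hearts, 6 correlated best with their own number. In the pairing by number the 2 ratios that were apart have the same differences of 0.50 and 0.65 by arithmetic. Their exact permutation p (0.03125, the smallest 6 pairs allow) was fixed as well, since every ac-CYB5R3-KO ratio was above every ac-WT ratio. For Col2a1, Col9a3 and Col24a1, at most 51, 25 and 45 counts in a heart limit the precision.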
